A study of Mus musculus with 6 samples.

Results

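Succinate dehydrogenase, the cytochrome bc1 complex, cytochrome c, cytochrome c oxidase and ATP synthase form the stages of the mitochondrial respiratory chain that follow complex I, with complex II as its second entry point. The nuclear genes for these stages were taken from the array by symbol: Sdha to Sdhd for complex II, the Uqcr genes and Cyc1 for complex III, Cycs for cytochrome c, the Cox4 to Cox8 families for complex IV and the Atp5 genes for complex V. The symbols matched 49 genes with 74 probes, among 21368 genes with a symbol and 55681 probes in all. By complex there were 4 genes of complex II, 9 of complex III, 1 of cytochrome c, 18 of complex IV and 17 of complex V. RNA came from the gastrocnemius, a calf muscle, of male mice that were 13 weeks old (young, 3 samples) or 25 months old (old, 3 samples). The labels name no strain, genotype or treatment for either age. They number the samples without saying whether each number is a separate animal, so the p-values rest on sample-to-sample spread that may be technical in part. In whole muscle, fewer cells of a type and less RNA per cell cannot be told apart.

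Complex II passes electrons from succinate to ubiquinone, complex III passes them on to cytochrome c, and complex IV uses them to reduce oxygen. Complexes III and IV pump protons out of the matrix, and complex V, ATP synthase, lets them return through a rotating ring and uses the energy to make ATP. Muscle fibres rely on this system for sustained work, slow and oxidative fibres most of all. Several subunits of complex IV exist as a form found in most tissues and a form made mainly in heart and skeletal muscle.

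Each sample was hybridised to its own single-colour array, and all 6 arrays shared 1 slide. Between 49.9% and 54.8% of gene spots were well above background on an array and 0 were saturated. Precision is limited by how many arrays there are. Old replicate 1 stood apart by the slope fitted to its spike-in controls, which was 0.84, while the other 5 arrays had slopes from 0.925 to 0.941. The 8 skeletal muscle markers were well above background on all 6 arrays, and the sum of their signals was 5391 to 6498 times the array's 75th percentile in young and 4398 to 5807 times in old muscle. Levels below are log2 signals relative to that percentile, and a difference is the old mean minus the young mean on this log2 scale, with its SE over 3 arrays per age. Levels of different probes cannot be set against each other.

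Most subunit transcripts lay slightly lower in old muscle. Of the 49 genes, 47 were well above background on at least 3 arrays and were tested. The testis forms Cox7b2 and Cox8c were not well above background on any array. A negative difference was found for 44 of the 47 genes, or 93.6%, against 56.9% of all 20906 genes tested. Their median difference was -0.29, a level 18.1% lower in old muscle, while the median over all genes was -0.062. None of the 47 passed limma's test at an adjusted p under 0.05, against 0.254% of all genes in either direction and 0.0574% lower in old muscle, and the lowest adjusted p was 0.287. At an unadjusted limma p under 0.05 there were 4 genes, all lower (Cycs, Sdhd, Cox5b and Uqcrfs1), which is 8.51% of the 47. Among all genes 8.39% were lower and 6.07% higher at that threshold, and 8.49% were lower among the brightest 5227 genes. That share is close to the background, but it depended on the fit. With normexp background correction it was 27.7% of the subunit genes against 9.49% of all genes. With trend and robust eBayes settings it was 40.4% against 9.05%, and with quantile normalization 0% against 8.45%. The trend setting lets the variance depend on signal level, and shares of bright genes were not computed for these alternatives. A gene at the median SE of 0.17 would have needed a difference of about 0.40 in size to reach an unadjusted p of 0.05, and genes with a smaller SE, such as Sdhd and Uqcrfs1, reached it with slightly less.

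**Figure D1:**
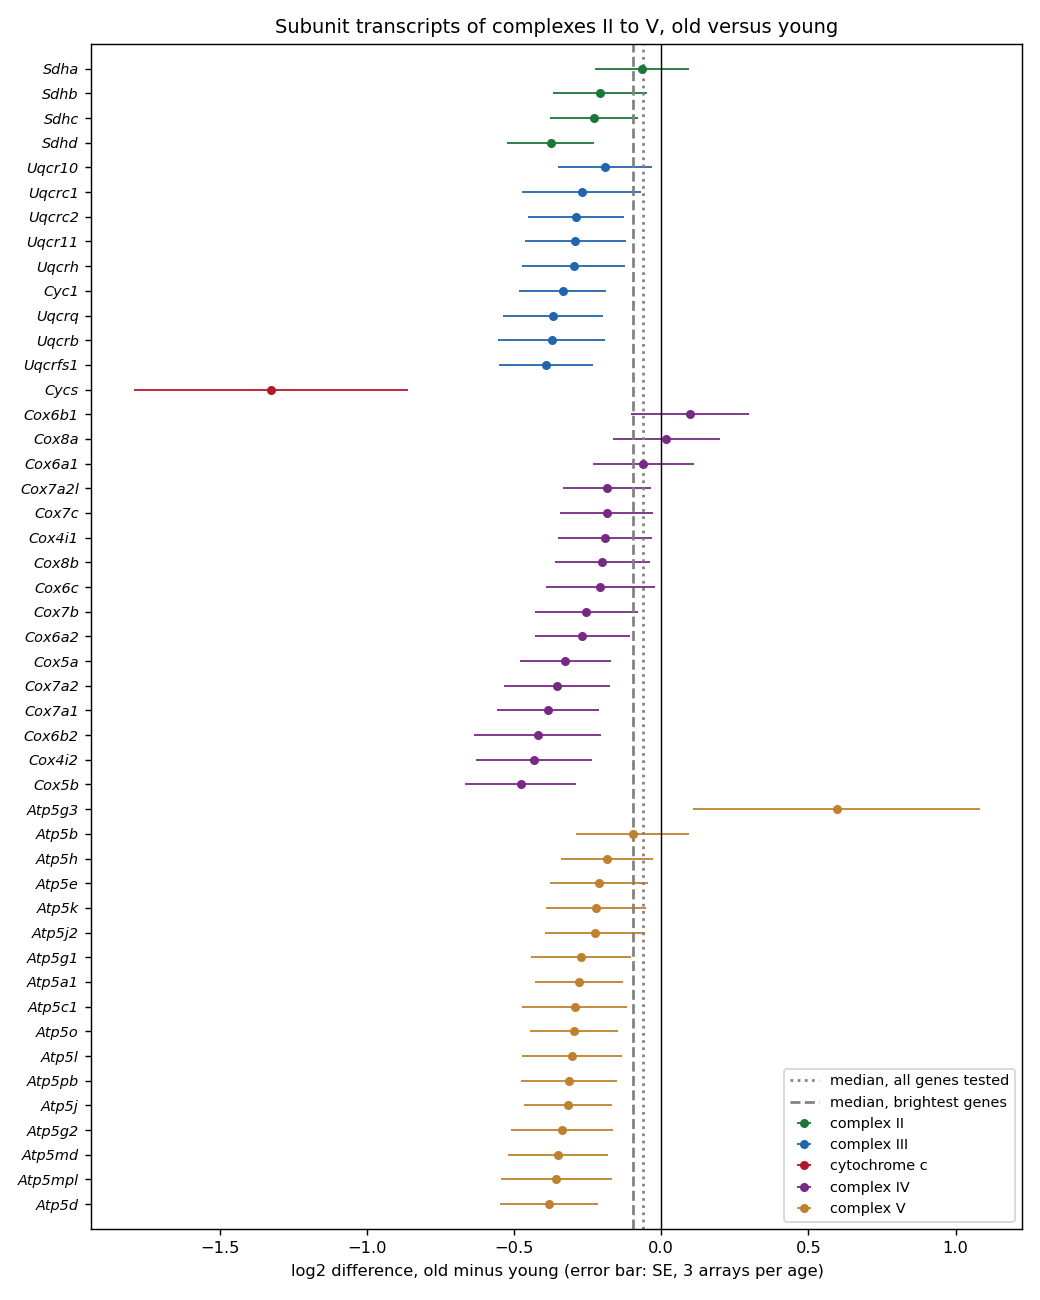
Log2 difference, old minus young, of the 47 tested genes, ordered within each complex (points, with SE over 3 arrays per age as bars). Vertical lines mark 0, the median of all genes tested (-0.062) and the median of the brightest 5227 genes (-0.096). All but Cox6b1, Cox8a and Atp5g3 lie below 0, and Cycs and Atp5g3 have the widest bars.

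These genes are among the brightest on the array, with 45 of 47 among the brightest 5227 of the 20906 genes tested. Bright genes as a whole also lay lower in old muscle. The median difference was -0.096 in these 5227 genes, of which 65.0% were negative, and -0.13 in the brightest 2091. For 473 other genes with mean levels from 7.14 to 8.45, the interquartile range of the subunit genes and a range chosen after the values were seen, it was -0.12 with 75.5% negative and 8.25% lower at an unadjusted p under 0.05. Only the subunit genes were left out of this set, so complex I genes at that level remain in it. In 20 subunit genes, or 42.6%, all 3 old values lay below all 3 young values. The same held for 13.9% of all genes, 18.7% of the brightest 5227 and 21.8% of the other genes at that level. In 0 subunit genes did the old values all lie above, which held for 7.92% of all genes. It held for few bright genes, 234 of the brightest 5227 and 13 of the 473 other genes at that level. The part of the general shift of bright genes in the subunit values was not tested. Quantile normalization, which gives every array the same distribution, brought the median of these other genes to 0.0066 and that of the subunit genes to -0.15, with 40 of 47 negative and 13 (27.7%) without overlap, against 13.3% of all genes. Median centring gave 39 of 47 without overlap against 21.3% of all genes.

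**Figure D2:**
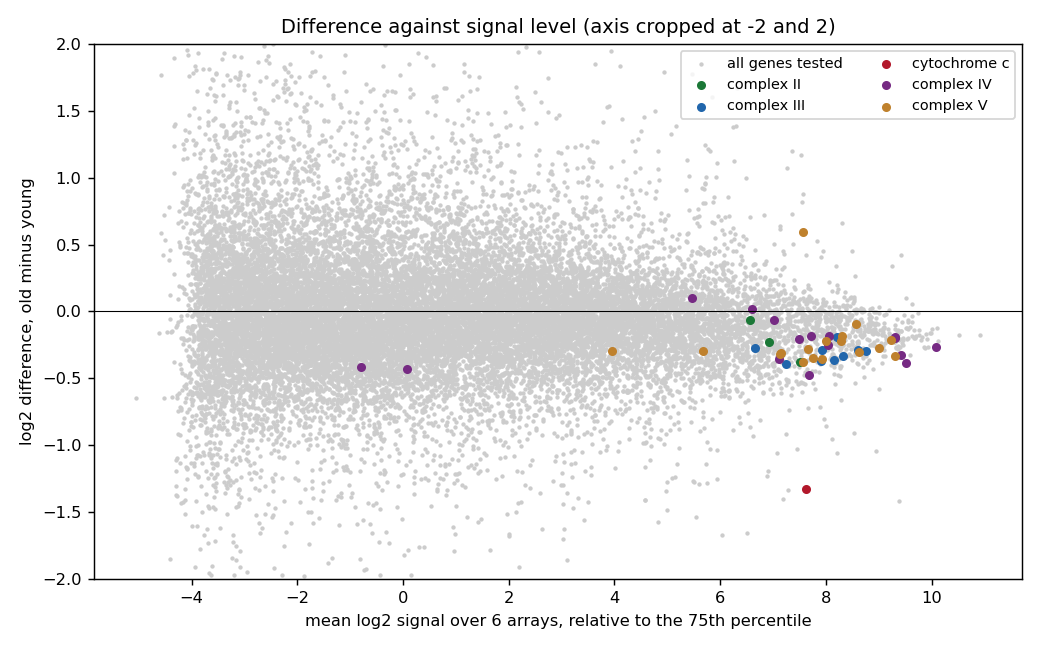
Log2 difference, old minus young, against the mean log2 signal over the 6 arrays for all genes tested (grey) and the subunit genes (coloured by complex). The axis stops at -2 and 2, which leaves out 198 grey points. Most subunit genes sit at the bright end and below 0, and Cox4i2 and Cox6b2 lie apart at the dim end.

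The subunit genes moved together from array to array, also within an age. With each gene centred on its mean over the 6 arrays, their median was -0.015, 0.16 and 0.27 on young replicates 1, 2 and 3, and -0.20, -0.073 and -0.16 on old replicates 1, 2 and 3. Young replicate 1 was the lowest young array for 43 of 47 genes and young replicate 3 the highest for 41, so the young arrays spanned a range about as wide as the difference between the ages. Old replicate 1 was the lowest of all 6 arrays for 27 genes and old replicate 3 for 11. Old replicate 2, the highest old array for 28 genes, was below every young array in 26, where old replicates 1 and 3 each were in 37. The other genes at the same level had medians of -0.0044, 0.010 and 0.21 on the young arrays and -0.19, 0.055 and -0.029 on the old ones, so they shared the high value of young replicate 3 and the low value of old replicate 1. Without young replicate 1 the old values lay below the young ones in 42 of 47 genes (20.3% of all genes), and without old replicate 2 in 32 (22.2% of all genes). Without old replicate 1 they did so in 25 (23.4% of all genes). The count stayed at 20 without young replicate 2, young replicate 3 or old replicate 3 (18.7%, 17.9% and 16.2% of all genes). With an array left out, the share of other genes at the same level was not computed. The arrays lay in 2 rows of the slide, the young arrays and old replicate 1 in one and old replicates 2 and 3 in the other. With the row as a block, which sets old replicate 1 alone against the young arrays, the median was -0.35 with 43 of 47 negative, and that of the other genes at the same level was -0.25.

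**Figure D3:**
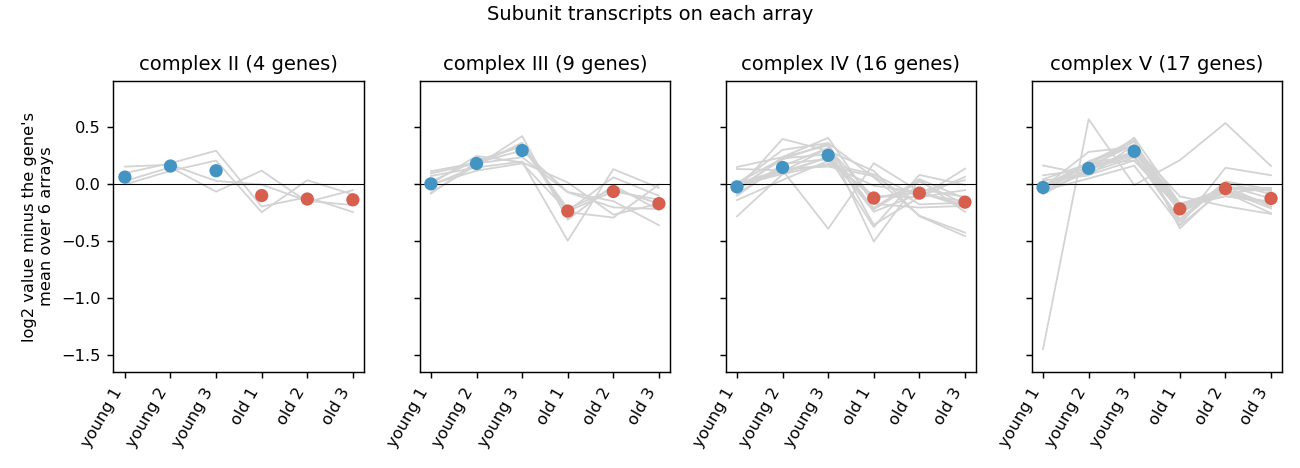
Log2 value of each gene minus its mean over the 6 arrays, by complex (grey lines, 1 per gene; blue and red points, median on each young and old array). In each complex the 3 old medians lie below the 3 young medians, and young replicate 1 lies lowest of the young arrays. The grey line that leaves the others in complex V is Atp5g3.

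Complex II had a median difference of -0.22, and all 4 genes were lower in old muscle. Sdhd, one of the membrane anchors that hold the ubiquinone site, had levels of 7.60, 7.69 and 7.80 on the young arrays and 7.31, 7.39 and 7.26 on the old arrays. The ages did not overlap, and the difference was -0.38 ± 0.15 (limma adjusted p = 0.325). Sdhc, the other membrane anchor, had 7.07, 7.08 and 6.94 on the young and 6.91, 6.77 and 6.73 on the old arrays, again without overlap, with a difference of -0.23 ± 0.15 (-0.36 by its other probe). For Sdhb, the iron-sulfur subunit, the values were 8.26, 8.38 and 8.47 on the young and 8.02, 8.30 and 8.18 on the old arrays. Old replicate 2 overlapped the young range, and the difference was -0.21 ± 0.16. Its other probe gave -0.39 without overlap. Sdha, the flavoprotein that oxidises succinate, had 6.59, 6.71 and 6.50 on the young and 6.69, 6.41 and 6.51 on the old arrays. These ages overlapped widely, with a difference of -0.066 ± 0.16.

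Complex III had the narrowest range of the larger complexes, with all 9 genes between -0.19 and -0.39 and a median of -0.30. Uqcrfs1, the Rieske iron-sulfur protein, had levels of 7.35, 7.43 and 7.53 on the young arrays and 7.17, 7.09 and 6.88 on the old arrays. Every old value lay below every young one, and the difference was -0.39 ± 0.16 (limma adjusted p = 0.336). Cyc1, cytochrome c1, which hands electrons to cytochrome c, had 8.41, 8.50 and 8.55 on the young and 8.25, 8.11 and 8.10 on the old arrays, a difference of -0.33 ± 0.15 without overlap. The small subunit Uqcrq had 8.17, 8.36 and 8.48 on the young and 7.90, 7.85 and 8.14 on the old arrays, also without overlap (-0.37 ± 0.17, and -0.38 by its other probe). For Uqcrb, which lies near the ubiquinone site, they were 7.89, 8.06 and 8.32 on the young and 7.59, 7.89 and 7.67 on the old arrays. Old replicate 2 and young replicate 1 had nearly the same value there, and the difference was -0.37 ± 0.18, with -0.35 and -0.33 by the other probes.

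The remaining complex III genes all had overlapping ages. Of the core proteins, Uqcrc2 had -0.29 ± 0.16 and Uqcrc1 -0.27 ± 0.20. Uqcrc1 rested largely on old replicate 1, at 6.16 where the other 5 arrays lay between 6.62 and 6.85. Without that array its difference was -0.089, and with normexp background correction it was 0.0012. The hinge protein Uqcrh had -0.30 ± 0.17, Uqcr11 -0.29 ± 0.17 and Uqcr10 -0.19 ± 0.16 (-0.20 and -0.089 by its other probes).

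Cycs, the soluble carrier between complexes III and IV, had the largest difference in size. Its brightest probe read 7.65, 8.54 and 8.68 on the young arrays and 7.82, 6.92 and 6.15 on the old arrays. The difference was -1.33 ± 0.47 (2.51-fold lower in old muscle, limma adjusted p = 0.287), but old replicate 1 lay above young replicate 1, so the ages overlapped. Without old replicate 3 the difference was -0.92, and without old replicate 1 it was -1.75. With the slide row as a block Cycs gave -0.47. A second probe of Cycs read 7.18, 7.36 and 7.50 on the young and 6.76, 6.96 and 6.86 on the old arrays. It separated the ages without overlap at a smaller difference of -0.49 ± 0.17 (1.41-fold lower, adjusted p = 0.289 with every probe tested). Both probes thus lay lower in old muscle, but they disagreed by 0.83 on the size, and the ranks of the arrays differed between them. Another probe of Cycs was near background, well above it on 1 of 3 arrays per age, and was not tested.

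**Figure D4:**
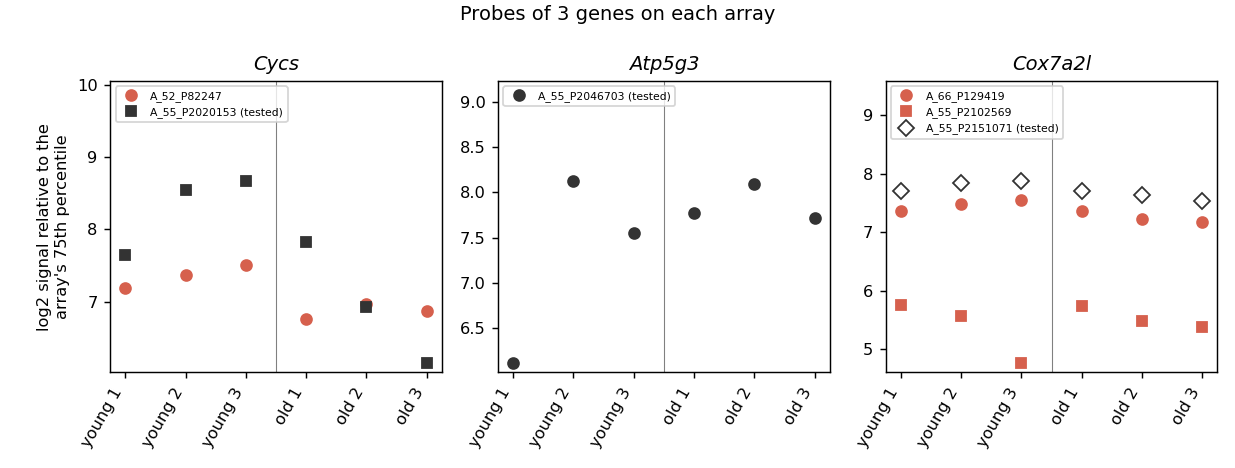
Log2 signal relative to the array's 75th percentile of each kept probe of Cycs, Atp5g3 and Cox7a2l on the 6 arrays (the tested probe in black, other probes in red). The tested Cycs probe runs from 6.15 to 8.68 while its second probe stays between 6.76 and 7.50, and Atp5g3 is at 6.12 on young replicate 1 and at 7.55 or above elsewhere.

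Complex IV had a median difference of -0.23 over 16 tested genes, 14 of them negative. Cox5b, a peripheral zinc-binding subunit, had levels of 7.83, 7.92 and 8.02 on the young arrays and 7.18, 7.72 and 7.44 on the old arrays. Every old value was below every young one, with old replicate 1 the lowest, and the difference was -0.48 ± 0.19 (limma adjusted p = 0.323). Cox5a, its partner on the matrix side, had 9.43, 9.65 and 9.68 on the young and 9.18, 9.34 and 9.27 on the old arrays (-0.33 ± 0.16, no overlap). The other subunits with no tested isoform partner were closer to 0, with Cox7b at -0.25 ± 0.17, Cox6c at -0.21 ± 0.18 and Cox7c at -0.19 ± 0.16, and their ages overlapped. Cox7c was read by 3 probes that differed widely in signal but gave similar differences, between -0.18 and -0.20.

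The heart and muscle isoforms Cox6a2, Cox7a1 and Cox8b were all lower in old muscle, with a median of -0.27, and their partners Cox6a1, Cox7a2 and Cox8a, the forms of most tissues, had differences of -0.061, -0.35 and 0.017. Cox7a1 had levels of 9.46, 9.75 and 9.92 on the young arrays and 9.34, 9.31 and 9.33 on the old arrays. The old arrays lay close together below all young ones, and the difference was -0.38 ± 0.17 (limma adjusted p = 0.373). Its counterpart Cox7a2 had 7.08, 7.33 and 7.47 on the young and 6.76, 7.00 and 7.06 on the old arrays, a difference of -0.35 ± 0.18 without overlap. The balance of Cox7a1 over Cox7a2 within an array thus shifted by -0.030 (95% interval -0.31 to 0.25, exact permutation p = 0.9).

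For the subunit 6a pair, the muscle form Cox6a2 had 10.07, 10.20 and 10.40 on the young and 9.97, 10.02 and 9.89 on the old arrays, without overlap (-0.27 ± 0.16). Cox6a1 had 6.88, 7.06 and 7.23 on the young and 6.92, 6.91 and 7.16 on the old arrays, with broad overlap (-0.061 ± 0.17). The balance of Cox6a2 over Cox6a1 was lower on every old array than on any young one, by -0.21 (95% interval -0.54 to 0.12). The exact permutation p was 0.1, the smallest that this number of arrays allows, and it became 0.45 after Benjamini-Hochberg adjustment over the 9 isoform pairs compared. With normexp background correction the shift of the pair Cox6a2 and Cox6a1 was -0.025, with quantile normalization -0.14, with the slide row -0.12 and without old replicate 3 -0.090.

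In the subunit 8 pair, Cox8b had 9.27, 9.42 and 9.54 on the young and 9.10, 9.35 and 9.18 on the old arrays, where old replicate 2 overlapped the young range (-0.20 ± 0.16). Cox8a had 6.32, 6.68 and 6.78 on the young and 6.68, 6.48 and 6.66 on the old arrays, with no visible separation (0.017 ± 0.18, and -0.032 by its other probe). The balance of Cox8b over Cox8a shifted by -0.22 (95% interval -0.65 to 0.21, exact permutation p = 0.3). The pair Cox8b and Cox8a shifted by -0.12 without old replicate 1, by -0.35 without old replicate 2, by -0.14 with quantile normalization and by -0.40 with the slide row.

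Cox4i1, the regulatory subunit of most tissues, had 9.21, 9.49 and 9.53 on the young and 9.19, 9.26 and 9.20 on the old arrays, overlapping at young replicate 1 (-0.19 ± 0.16). Its isoform Cox4i2, known from lung, was dim, with 0.072, 0.37 and 0.43 on the young and 0.13, -0.20 and -0.35 on the old arrays. Old replicates 2 and 3 lay below all young arrays and old replicate 1 among them, with a difference of -0.43 ± 0.20. Cox6b1, a subunit facing the intermembrane space, had 5.59, 5.58 and 5.07 on the young and 5.64, 5.39 and 5.49 on the old arrays, a difference of 0.097 ± 0.20 with broad overlap. The testis form Cox6b2 was dim and followed the pattern of Cox4i2, with -0.85, -0.40 and -0.51 on the young and -0.68, -1.08 and -1.25 on the old arrays (-0.42 ± 0.22). Cox4i2 and Cox6b2 are the tested subunit genes outside the brightest 5227. The balance of Cox4i1 over Cox4i2 shifted by 0.24 (95% interval -0.19 to 0.67, exact permutation p = 0.4) and that of Cox6b1 over Cox6b2 by 0.52 (-0.26 to 1.29, exact p = 0.2). The pair Cox6b1 and Cox6b2 shifted by 0.30 without young replicate 3 and by 0.33 with the slide row as a block. The pair Cox4i1 and Cox4i2 shifted by 0.39 without old replicate 1, by 0.15 without old replicate 3, by 0.46 with quantile normalization and by -0.062 with the slide row.

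Cox7a2l, a relative of subunit 7a that joins complexes III and IV into supercomplexes, had 7.70, 7.83 and 7.88 on the young and 7.70, 7.64 and 7.53 on the old arrays, with old replicate 1 just below the lowest young array. The difference was -0.18 ± 0.15. A second probe gave -0.21, and a dimmer probe 0.17, with young replicate 3 low. The balance of Cox7a1 over Cox7a2l shifted by -0.20 (95% interval -0.46 to 0.063, exact permutation p = 0.2). The pair Cox7a1 and Cox7a2l shifted by -0.13 without young replicate 3 and by -0.31 with the mean of probes.

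**Figure D5:**
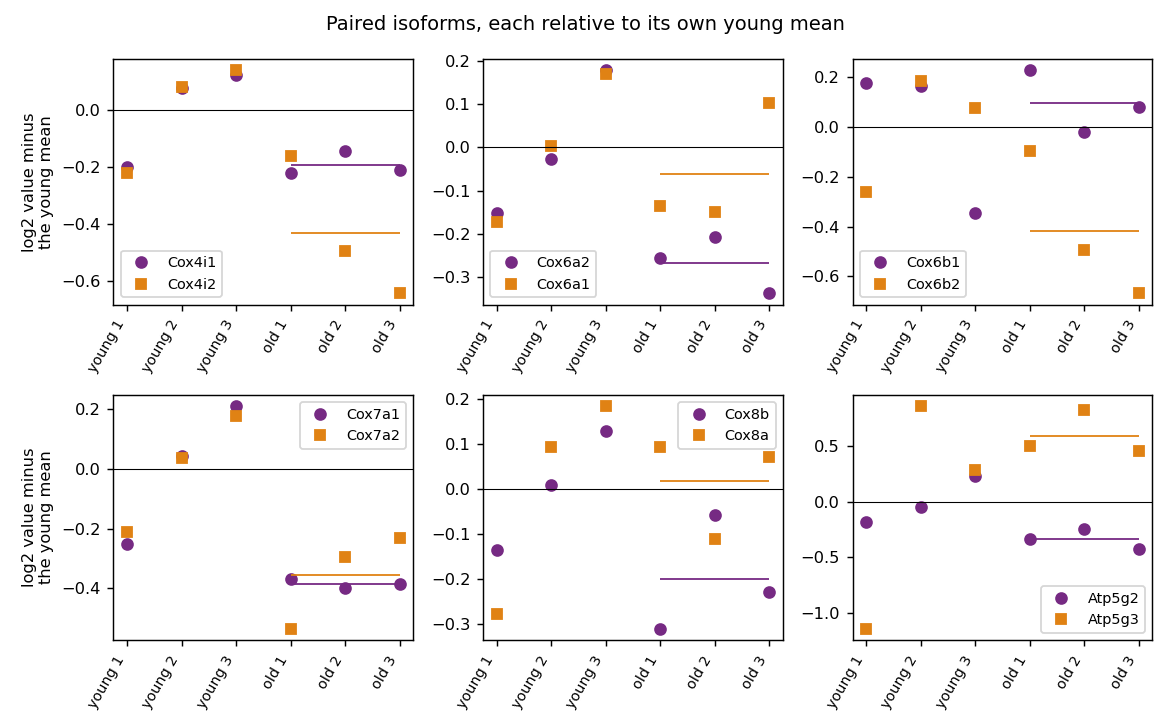
Log2 value of 2 isoforms of a subunit on each array, each minus its own mean over the young arrays (purple circles and orange squares; short lines, old means; the vertical scale differs between panels). The old means of Cox7a1 and Cox7a2 lie close together, Cox6a2 lies below Cox6a1 on every old array, and the Atp5g3 value of young replicate 1 lies far below the others.

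Complex V had a median difference of -0.29. Of its 17 genes 16 were lower in old muscle, against 56.9% of all genes and 75.5% of other genes at the subunit level. In 9 (52.9%) all old values lay below the young ones, against 13.9% of all genes and 21.8% of other genes at the subunit level. In complexes II, III and IV this held for 2 of 4 genes (50%), 3 of 9 (33.3%) and 6 of 16 (37.5%). In the catalytic F1 part, Atp5d, the delta subunit of the central stalk, had levels of 7.53, 7.84 and 7.89 on the young arrays and 7.45, 7.37 and 7.30 on the old arrays. The difference was -0.38 ± 0.17 (limma adjusted p = 0.364), with young replicate 1 just above the old range. The alpha subunit Atp5a1 had -0.28 ± 0.15 and the gamma subunit Atp5c1 -0.29 ± 0.18 (-0.52 by its other probe), both without overlap, and the epsilon subunit Atp5e had -0.21 ± 0.17. Atp5b, the catalytic beta subunit, had -0.097 ± 0.19. It was low on old replicate 1 alone, and without that array the difference was 0.059.

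The peripheral stalk, which holds the catalytic part still while the ring turns, had a median of -0.30. Atp5j, its coupling factor 6, had 7.21, 7.26 and 7.40 on the young and 6.91, 7.05 and 6.96 on the old arrays, without overlap (-0.32 ± 0.15). Atp5o, the subunit that confers oligomycin sensitivity, had 5.84, 5.76 and 5.88 on the young and 5.45, 5.66 and 5.48 on the old arrays, and again the ages did not overlap (-0.30 ± 0.15). Atp5pb also separated the ages, with -0.31 ± 0.16 and -0.38 by its other probe. Atp5h had -0.18 ± 0.16 and -0.31 by its other probe.

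Among the small membrane subunits, Atp5md had 7.74, 7.93 and 8.13 on the young and 7.50, 7.70 and 7.54 on the old arrays, without overlap (-0.35 ± 0.17). Atp5l also separated the ages (-0.30 ± 0.17), although its other probes ranged from -0.067 to -0.30. Atp5mpl had -0.36 ± 0.19, Atp5j2 -0.23 ± 0.17 and Atp5k -0.22 ± 0.17, and these overlapped.

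The c ring is encoded by 3 genes, whose products differ in their import sequences but share the mature protein. Atp5g2 had 9.30, 9.43 and 9.72 on the young and 9.14, 9.24 and 9.06 on the old arrays, without overlap (-0.34 ± 0.17, and -0.14 by its other probe). Atp5g1 had 8.99, 9.20 and 9.26 on the young and 8.68, 9.02 and 8.92 on the old arrays, a difference of -0.27 ± 0.17 with old replicate 2 inside the young range. Atp5g3 was the exception, with 6.12, 8.13 and 7.55 on the young and 7.77, 8.10 and 7.72 on the old arrays. Its difference of 0.60 ± 0.49 came from young replicate 1, and without that array it was 0.021. The balance of Atp5g2 over Atp5g3 shifted by -0.93 (95% interval -2.45 to 0.59, exact permutation p = 0.3), and for the pair Atp5g2 and Atp5g3 it was -0.45 without young replicate 1. That of Atp5g1 over Atp5g3 shifted by -0.87 (-2.36 to 0.62, exact p = 0.2), and for the pair Atp5g1 and Atp5g3 it was -0.37 without the same array. That of Atp5g1 over Atp5g2 shifted by 0.064 (-0.27 to 0.39, exact p = 0.5). After adjustment over the 9 pairs, none of the exact p-values was below 0.45. Several of these genes have processed pseudogenes and near-identical relatives, which a probe may not tell apart.

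Promoter sequences show, outside the measurement, which motifs some genes of the chain have. RefSeq promoters of GRCm38.p6, from 250 bases before to 50 after the start, were matched by symbol for 37 of the 49 genes. Motifs known from respiratory genes were searched on both strands, and no matches of different motifs overlapped in these promoters. Any of the motifs was matched in 22 of the 37 genes, and 15 had none. The core of the ETS and GABP site, CCGGAAG, was found in the promoters of 13 genes, or 35.1%, against 8.86% of all 32851 promoters. The NRF1 core GCATGCGC was found in 8 genes, or 21.6% (Atp5g2, Atp5k, Atp5l, Cox6a1, Cycs, Sdhb, Uqcr11 and Uqcrc1), against 2.71%. That core was shortened after the matches of its full palindrome were seen, so its share was not set in advance. The YY1 core AAGATGGC was found in 3 genes, or 8.11%, against 2.75%. Shares of the subunit genes are per gene, and those they are set against are per promoter. For the cyclic AMP response element TGACGTCA there were 2 genes, or 5.41%, against 1.79%, for the oestrogen-related receptor element TNAAGGTCA also 2 against 1.28%, and for the E-box CAGCTG again 2 against 16.3% of all promoters. The median difference was -0.22 over the tested genes with the ETS core and -0.29 over those without it.

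The promoters below belong to the 4 genes with an unadjusted p under 0.05 and to the Cox8b and Cox8a pair, an isoform of heart and muscle and one of most tissues. Each is given 5′ to 3′ on the gene's strand, with matches to the motifs in capitals.
Cycs, chr6:50566520-50566819, minus strand: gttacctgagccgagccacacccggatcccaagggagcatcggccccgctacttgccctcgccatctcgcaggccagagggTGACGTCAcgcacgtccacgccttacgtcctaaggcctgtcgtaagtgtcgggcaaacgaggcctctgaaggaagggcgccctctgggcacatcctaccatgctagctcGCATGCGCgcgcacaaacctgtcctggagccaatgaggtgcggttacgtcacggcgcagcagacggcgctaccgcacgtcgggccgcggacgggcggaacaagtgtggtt
Sdhd, chr9:50603800-50604099, minus strand: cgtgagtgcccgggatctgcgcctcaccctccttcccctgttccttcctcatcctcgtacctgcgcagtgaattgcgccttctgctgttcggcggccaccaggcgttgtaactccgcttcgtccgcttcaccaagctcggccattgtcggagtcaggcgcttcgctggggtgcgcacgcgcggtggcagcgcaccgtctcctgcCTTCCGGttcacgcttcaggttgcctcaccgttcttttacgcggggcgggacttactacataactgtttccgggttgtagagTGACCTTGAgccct
Cox5b, chr1:36691237-36691536, plus strand: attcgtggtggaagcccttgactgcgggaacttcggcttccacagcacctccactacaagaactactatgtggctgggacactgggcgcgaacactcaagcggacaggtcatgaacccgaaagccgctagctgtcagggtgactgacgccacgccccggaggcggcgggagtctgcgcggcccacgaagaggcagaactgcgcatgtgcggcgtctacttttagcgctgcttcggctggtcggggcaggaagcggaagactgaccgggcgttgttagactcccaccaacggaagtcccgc
Uqcrfs1, chr13:30545267-30545566, minus strand: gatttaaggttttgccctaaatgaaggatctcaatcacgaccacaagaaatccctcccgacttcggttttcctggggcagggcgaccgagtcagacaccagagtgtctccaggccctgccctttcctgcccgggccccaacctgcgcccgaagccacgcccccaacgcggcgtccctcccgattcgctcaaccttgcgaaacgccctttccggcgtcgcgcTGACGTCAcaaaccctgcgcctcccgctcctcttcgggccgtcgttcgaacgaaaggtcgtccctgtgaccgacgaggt
Cox8b, chr7:140900397-140900696, minus strand: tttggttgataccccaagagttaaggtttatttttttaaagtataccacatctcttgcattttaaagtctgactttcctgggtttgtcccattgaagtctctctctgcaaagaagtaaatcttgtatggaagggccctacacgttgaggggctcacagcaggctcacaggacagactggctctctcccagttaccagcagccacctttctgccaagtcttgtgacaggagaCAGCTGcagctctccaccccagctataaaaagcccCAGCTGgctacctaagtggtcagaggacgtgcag
Cox8a, chr19:7217567-7217866, minus strand: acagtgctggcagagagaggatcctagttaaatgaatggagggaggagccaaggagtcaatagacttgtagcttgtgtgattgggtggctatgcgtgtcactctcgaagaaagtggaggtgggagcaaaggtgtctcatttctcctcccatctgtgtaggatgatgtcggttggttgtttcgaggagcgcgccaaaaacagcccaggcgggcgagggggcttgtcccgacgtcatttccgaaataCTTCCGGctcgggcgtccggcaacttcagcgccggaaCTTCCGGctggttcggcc
Counted from the start, the cyclic AMP response element lies at -169 in Cycs, which also has the NRF1 core at -60, and at -29 in Uqcrfs1. Sdhd holds the ETS core at -46 and the oestrogen-related receptor element at 37. Cox8b has E-boxes at -19 and 17, and Cox8a has ETS cores at -5 and 33. No listed motif was matched in Cox5b, whose difference was the largest of complex IV in size. A match is a run of letters, and binding was not measured here.

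Other genes of the pathway were taken from lists of complex I subunits, assembly factors and regulators, and none of them passed limma's test at an adjusted p under 0.05. Complex I was represented by 37 Nduf subunit genes, with 34 negative, 19 (51.4%) without overlap and a median of -0.28. All old values lay below the young ones in 13.9% of all genes and 21.8% of the other genes at the subunit level. Some of the Nduf genes are themselves in the latter set. The centred medians of the Nduf genes were -0.015, 0.18 and 0.29 on the young arrays and -0.20, -0.041 and -0.16 on the old arrays. Of 34 assembly factors of complexes II to V, 30 were tested and 17 were negative, with a median of -0.055, close to that of all genes. In 3 of them (10%) the old values all lay below the young ones, against 13.9% of all genes. The lowest p-values were those of Atpaf1, which assembles the F1 part (-0.39 ± 0.17), and of Cox20 (-0.37 ± 0.20) and Cox11 (-0.35 ± 0.20), which help build complex IV. Neither these nor any other assembly factor reached an unadjusted limma p of 0.05. Assembly factors are dimmer, with a median level of 3.68 against 7.91 for the subunits, and the difference between these lists was not tested.

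Of 15 regulators of mitochondrial gene expression, 10 were negative and the median was -0.042. The nuclear receptor Esrra, which drives respiratory genes with its coactivators, had 6.62, 6.85 and 6.83 on the young and 6.48, 6.23 and 6.05 on the old arrays, a difference of -0.51 ± 0.18 without overlap (limma adjusted p = 0.284). Tfb1m, a methyltransferase of the mitochondrial ribosome, had 2.14, 1.80 and 2.35 on the young and 2.38, 2.82 and 2.85 on the old arrays (0.59 ± 0.22, no overlap, adjusted p = 0.303). Pprc1, a coactivator related to PGC-1, had 0.55 ± 0.26 with overlap. Ppargc1a, which encodes PGC-1 alpha, had -0.017 ± 0.23 and Nrf1 -0.042 ± 0.23.

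Markers of fibre types and other cell types also differed in level between the ages, but none of them passed limma's test, with a lowest adjusted p of 0.231 for slow fibre, 0.196 for red cell and 0.125 for macrophage markers. All 8 slow fibre markers were lower in old muscle, with a median of -0.59 and a summed signal of 1376 to 1829 in young and 828 to 1264 in old muscle, in units of the array's 75th percentile. Their centred medians were 0.12, 0.46 and 0.40 on young replicates 1, 2 and 3 and -0.0051, -0.11 and -0.66 on old replicates 1, 2 and 3. Both they and the subunit genes were lowest on young replicate 1 among the young arrays. On old replicates 1, 2 and 3 complex II had -0.10, -0.13 and -0.14 and complex IV -0.12, -0.081 and -0.16. Both were lowest on replicate 3, as the slow fibre markers were, but complex II only slightly so. Complexes III and V were lowest on old replicate 1. The slow fibre markers and complex II were highest of the old arrays on replicate 1, and complexes III, IV and V on replicate 2. Of the 8 skeletal muscle markers 7 were lower in old muscle, with a median of -0.18. Their centred medians were -0.028, 0.071 and 0.26 on the young arrays and -0.31, 0.054 and -0.0013 on the old arrays. They too were lowest on young replicate 1 among the young arrays, and on the old arrays on replicate 1. Of 5 red cell markers 4 were tested, with a median of -1.14 and a summed signal of 147 to 226 in young and 52.9 to 112 in old muscle. The 7 macrophage markers had a median of 0.55, with sums of 23.4 to 25.5 in young and 27.7 to 33.4 in old muscle. Of 6 adipocyte markers 5 were tested, with sums of 141 to 151 and 107 to 142. Of 6 brown adipocyte markers, whose cells also make Cox7a1 and Cox8b, 4 were tested with overlapping sums of 11.1 to 18.3 and 8.91 to 19.0, and Ucp1 and Elovl3 were not well above background on enough arrays to be tested. The part of each of these lists in the subunit values was not tested.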

How the data were processed

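The labels' protocols state that RNA of the gastrocnemius was labelled with Cy3. Per the file headers, Agilent Feature Extraction 11.0.1.1 (protocol GE1_1100_Jul11) made the deposited intensity of each spot by subtracting background and detrending, whereas version 9.5 stands in the submitters' processing notes. The authors' deposited value table rescales this intensity to the array's 75th percentile and rounds it, which held for all 62976 spots when tested.

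Control spots were dropped, as were outlier-flagged ones, of which an array had 161 to 212. The log2 intensity was averaged over a probe's spots, and the array's 75th percentile over all gene probes was subtracted. Of 55681 probes, 28331 had 1 symbol through RefSeq accessions (GRCm38.p6) and 27350 none. The array names mm9, so no gene coordinates were joined. Probes well above background on at least 3 arrays were kept, and a gene was represented by its brightest kept probe. The ages were compared in limma 3.58.1 (R 4.3.3), two-sided, with Benjamini-Hochberg adjustment over 20906 genes and a threshold of 0.05. The fit was tested on simulated data. Isoform pairs were compared by exact two-sided permutation of within-array differences, with 95% t intervals. Python 3.11.15 made tables and figures.

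The genes and lists were chosen with earlier results of these data known. Any subunit gene could be named. Per-array values are given for complex II, Cycs, Cyc1, the isoform pairs and the 4 lowest p-values of complexes III, IV and V, and of the other pathway lists the 3 lowest p-values are named. Ppargc1a, Nrf1 and the printed promoters were chosen outside that rule. The NRF1 core was shortened from its full palindrome, which matched fewer genes, after those matches were seen. Mitochondrially encoded subunits were not analysed here. Alternatives were other normalizations, background correction, the authors' values, filters, probe summaries, eBayes settings, array weights, blocks and leaving out each array.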

Additional observations from a re-analysis of the deposited data

How the results depend on the processing

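No subunit gene passed the adjusted threshold in limma's test under any of the 18 alternatives, where the lowest adjusted p of a subunit gene ran from 0.107 to 0.574. The share with an unadjusted p under 0.05 depended on the fit, from 0 genes with quantile normalization to 13 with normexp and 19 with trend and robust eBayes settings, where 8.45%, 9.49% and 9.05% of all genes were lower, beside 4 as reported. Shares of bright genes were not computed for these alternatives. The median difference of each complex stayed negative throughout. Median centring, which moves the median of all genes to -0.21, gave -0.37, -0.44, -0.38 and -0.44 for complexes II, III, IV and V, and quantile normalization gave -0.10, -0.16, -0.080 and -0.15. Complex II, with 4 genes, also moved to -0.16 with normexp, -0.30 with the mean of probes and -0.29 with every probe. The number of genes called among all genes tested was 53 as reported, 194 with array weights, 8 with no filter on dim probes, 35 when a probe had to pass background on each of the 6 arrays, 5 with the replicate block, and from 1 to 186 when 1 array was left out. Of the 53 genes 41 were higher, against 26 of 42 with median centring, 38 of 61 with normexp, 22 of 41 with the slide row and 91 of 186 without old replicate 1.

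Of the 47 subunit genes, 40 kept their sign under every alternative. Atp5b gave 0.010 with array weights, 0.042 with quantile normalization and -0.19 to 0.059 when 1 array was left out. Quantile normalization also turned Cox4i1 (0.011), Cox6a1 (0.045) and Sdha (0.035), and Sdha gave 0.082 with the slide row as a block. Cox6a1 ranged from -0.15 to 0.024 when 1 array was left out, and Uqcrc1 gave 0.0012 with normexp. Cox6b1 gave -0.042 with array weights, -0.050 with median centring and -0.076 to 0.19 when 1 array was left out. Cox8a gave -0.0074 with probes averaged, -0.13 with median centring and -0.12 to 0.11 when 1 array was left out. For the pair Atp5g1 and Atp5g2 the shift was -0.033 with probes averaged, -0.13 with the slide row and -0.0033 to 0.16 when 1 array was left out, and for the pair Cox4i1 and Cox4i2 it was -0.062 with the slide row. The pair Cox7a1 and Cox7a2 gave 0.011 with normexp, 0.062 with quantile normalization, 0.17 with the slide row and -0.13 to 0.031 when 1 array was left out. The cause was not tested.

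The labels do not say whether samples with the same replicate number are paired. Deviations of same-numbered arrays from their group means correlated at -0.062, -0.27 and 0.028 over 20898 genes. Those of differently numbered arrays correlated at -0.21 to 0.35. These values show no pairing, but 3 arrays per age are too few to settle it. With the replicate block 5 genes passed among all genes and 0 subunit genes, and the lowest exact p of a pair was 0.25, the smallest that 3 pairs allow.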
